A study of Mus musculus with 4 samples.

Results

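The genes described here are the abundant processed pseudogenes of sorted retinal endothelial cells: the 141 genes annotated as processed pseudogene whose mean over 4 libraries was at least 10 FPKM. FPKM, the fragments of a gene per kilobase of its transcript and per 1 M fragments of the library, is the unit of the deposited levels. The 141 were taken from 9496 processed pseudogenes among 54446 genes in the table, and were selected on their mean level over the 4 libraries, so that their abundance is a description and not a result. A mean over all libraries can also be reached through 1 genotype: 117 members had a mean of at least 10 FPKM in both genotypes, 10 only in the controls and 14 only in the Zeb1-CKO libraries. Members that passed through 1 genotype alone lean toward a difference by how they were chosen. All 141 passed the filter of the test, a mean of at least 1 FPKM, as their level requires. The lowest members inside the threshold were Gm10093, Gm18588 and Gm2606, with means of 10.5, 10.4 and 10.3 FPKM, and the highest processed pseudogenes outside it were Gm2962, Gm3791 and Gm5527, with means of 9.82, 9.70 and 9.56 FPKM.

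A processed pseudogene arises when a messenger RNA is copied into DNA and inserted elsewhere in the genome, without introns and usually without its own promoter. The source gene is called the parent. Abundant messenger RNAs of the germ line, such as those of ribosomal proteins and of Gapdh, have left many such copies in mammalian genomes. Young copies differ from the parent at few bases, so that short reads of the parent and of its copies can be hard to tell apart, and a quantifier has to divide such reads between them.

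The endothelial cells, which line blood vessels, were sorted by flow cytometry from retinas of C57BL/6 mice at postnatal day 16. There were 2 libraries of control mice and 2 of mice whose titles read Zeb1-CKO, a conditional knockout of the transcriptional repressor Zeb1, while the genotype field calls the same mice a Zeb1 knockdown. Each library was made from 100 cells, and the Cre driver, the floxed allele and what the controls carry are not given in the labels. All 4 libraries carry the same strain label, and whether the strain background differed between genotypes beyond that label was not tested.

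Zeb1 itself was at 10.7 and 11.1 FPKM in control libraries and at 8.66 and 7.07 FPKM in Zeb1-CKO libraries, a log2 fold change of -0.43 that was not called (limma adjusted p = 0.235). Estimated depths were 20.5 and 11.2 M fragments for the controls and 21.9 and 16.7 M for Zeb1-CKO 1 and 2. The 8 endothelial markers summed to 3527 to 4355 FPKM, and none of the marker lists held a gene at 0 in all libraries. The 5 red cell markers summed to 2727 and 3298 FPKM in control libraries and to 745 and 1409 FPKM in Zeb1-CKO libraries, with none of the 5 called. The 5 smooth muscle markers summed to 536 and 393 against 229 and 308 FPKM, with 1 called lower, the 6 pericyte markers to 1962 and 1619 against 1415 and 1492 FPKM, and the 7 microglial markers to 23.4 and 74.2 against 20.6 and 8.74 FPKM. These 4 sums thus separated by genotype, as did the called pseudogenes, and their part in those differences was not tested. The photoreceptor list (9.46 to 93.0 FPKM), the glial list (157 to 237 FPKM) and the inner neuron list (4.39 to 9.97 FPKM) overlapped between genotypes. Fewer cells of a type and less RNA per cell cannot be told apart in such pools.

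The sequences that matter here are those of the 7 members with a log2 fold change over 2 in either direction, each beside a coding gene to which it is nearly identical. Each line holds 60 bases of the coding sequence, 5′ to 3′, from GENCODE M21 transcripts on mm10. Capitals mark the bases at which the pseudogene and the gene shown with it differ, and the stretch was placed where such differences lie. For Gm4735 the gene shown is Eno1, and not the coding gene closest to it in sequence, Eno1b. BC002163 is shown from chr16:42955693-42955752 (plus strand), Gm4735 from chr2:80838338-80838397 (plus), Gm10020 from chr15:52478021-52478080 (minus), Rpl3-ps1 from chrX:13202598-13202657 (plus), Gm8730 from chr8:102865352-102865411 (minus), Rps3a2 from chr14:88123124-88123183 (minus) and Gm13394 from chr2:28934235-28934294 (minus).
BC002163: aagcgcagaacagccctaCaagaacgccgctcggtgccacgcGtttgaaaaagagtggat
Ndufs5: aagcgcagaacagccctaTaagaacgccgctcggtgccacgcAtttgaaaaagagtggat
Gm4735: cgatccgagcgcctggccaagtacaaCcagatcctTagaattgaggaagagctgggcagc
Eno1: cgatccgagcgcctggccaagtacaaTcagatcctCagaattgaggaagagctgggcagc
Gm10020: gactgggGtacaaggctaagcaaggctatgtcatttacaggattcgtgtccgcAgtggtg
Rpl15: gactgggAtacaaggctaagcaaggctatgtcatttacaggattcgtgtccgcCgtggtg
Rpl3-ps1: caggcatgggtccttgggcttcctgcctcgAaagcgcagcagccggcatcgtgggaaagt
Rpl3: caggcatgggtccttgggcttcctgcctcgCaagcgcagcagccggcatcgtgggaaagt
Gm8730: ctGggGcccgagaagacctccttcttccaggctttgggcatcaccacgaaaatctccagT
Rplp0: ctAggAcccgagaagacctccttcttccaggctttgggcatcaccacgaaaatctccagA
Rps3a2: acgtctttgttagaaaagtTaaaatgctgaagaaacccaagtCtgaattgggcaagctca
Rps3a1: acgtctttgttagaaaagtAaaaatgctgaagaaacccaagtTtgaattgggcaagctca
Gm13394: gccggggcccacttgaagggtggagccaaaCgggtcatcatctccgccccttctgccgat
Gapdh: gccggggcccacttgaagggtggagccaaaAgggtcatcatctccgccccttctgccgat

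Positions are counted from 1 at the A of the start codon of the coding gene shown, with that gene's base first and the pseudogene's base last. Over the whole aligned coding sequence, Gm13394 differed from Gapdh by A346C alone. BC002163 differed from Ndufs5 by T81C and A105G, Gm10020 from Rpl15 by A156G and C202A, and Rpl3-ps1 from Rpl3 by C57A and T786C. Rps3a2 carried 4 substitutions against Rps3a1, Gm4735 carried 5 against Eno1, and Gm8730 carried 12 against Rplp0. A read pair of 2 × 150 bases that covers none of these positions matches the pseudogene and the parent equally well. The stretch shown for Gm8730 holds A390G, A393G and A447T, and 91.9% of its 150-base windows, the read length, had no exact copy in transcripts of other genes. For Gm13394 that share was 17.6%, and for Rpl3-ps1 5.47%.

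The members were short and near-identical to known genes. Their median transcript length was 513 bases (114 to 2406 bases), and 139 of 141 had 1 exon. A parent, here a coding gene that matched 50% or more of the pseudogene at 90% identity or more, was found for 139 members and came to 116 genes. Identity had a median of 99.6% and a minimum of 90.4%, with 31 members at 100%, 78 from 99% to below 100%, and 30 below 99%. The members AC109261.2 and Gm47830 had no such parent. In 113 members the transcript began with ATG, and in 99 the reading frame from that ATG reached 95% of the transcript before any stop codon. Of the 139 members, 31 had a higher mean level in FPKM than their own parent.

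The parents were mostly housekeeping genes. Ribosomal proteins were the parents of 50 members, chromatin and nuclear proteins of 16, mitochondrial proteins of 9, translation factors of 6, glycolytic enzymes of 5, cytoskeletal proteins and ubiquitin or proteasome genes of 4 each, chaperones and prolyl isomerases of 3, and ferritin or thioredoxin genes of 1, which leaves 41 with other parents. Summed over all 141, the members came to 5294 and 5635 FPKM in control libraries and to 4910 and 5237 FPKM in Zeb1-CKO libraries, or 1.73% to 1.92% of all FPKM. Both sums of the controls were above both of the Zeb1-CKO libraries. The sums over all genes of the table were in the same order, at 294276 and 293840 against 283814 and 291486 FPKM. Those over coding genes averaging 10 FPKM or more overlapped, at 221731 and 216073 against 211031 and 224996 FPKM. The order of the members was also seen for the 130 that were not called, at 4827 and 5147 against 4354 and 4688 FPKM. Of these 130, 85 were at a negative log2 fold change, beside 6443 of 13651 fitted genes. The cause of this order was not tested.

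Between genotypes, 11 of the 141 members were called at a limma adjusted p under 0.05, 6 higher and 5 lower in the Zeb1-CKO libraries. This was 7.80% of the members, beside 3.13% of the 13651 genes fitted, but the rule for members bears on that share. Of the 117 members at 10 FPKM or more in both genotypes, 3 were called higher and 2 lower (4.27%), close to the background; the other 6 calls were 3 of the 10 members that passed through the controls alone and 3 of the 14 that passed through Zeb1-CKO alone, and nothing is read from these. In one direction at a time, 2.23% of fitted genes were called higher and 0.901% lower. Among coding genes averaging 10 FPKM or more the share was 3.54%, and among processed pseudogenes with a mean of 1 to 10 FPKM it was 3.01%. The members' median log2 fold change was -0.08, beside 0.02 over all fitted genes. A log2 fold change over 2 in either direction was found in 7 of 141 members, beside 0.82% of all fitted genes and 0.737% of the coding genes at this level. Of these 7, Rpl3-ps1 alone was among the 117 members at 10 FPKM or more in both genotypes, and the other 6 passed the threshold through the genotype in which they are high. Control and Zeb1-CKO libraries did not overlap in 73 members (51.8%), beside 49.4% of all fitted genes, a share close to that background. With 2 libraries a genotype, and nothing to say that they came from separate animals, p-values reflect the spread between these libraries alone, which may be technical.

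**Figure D1:**
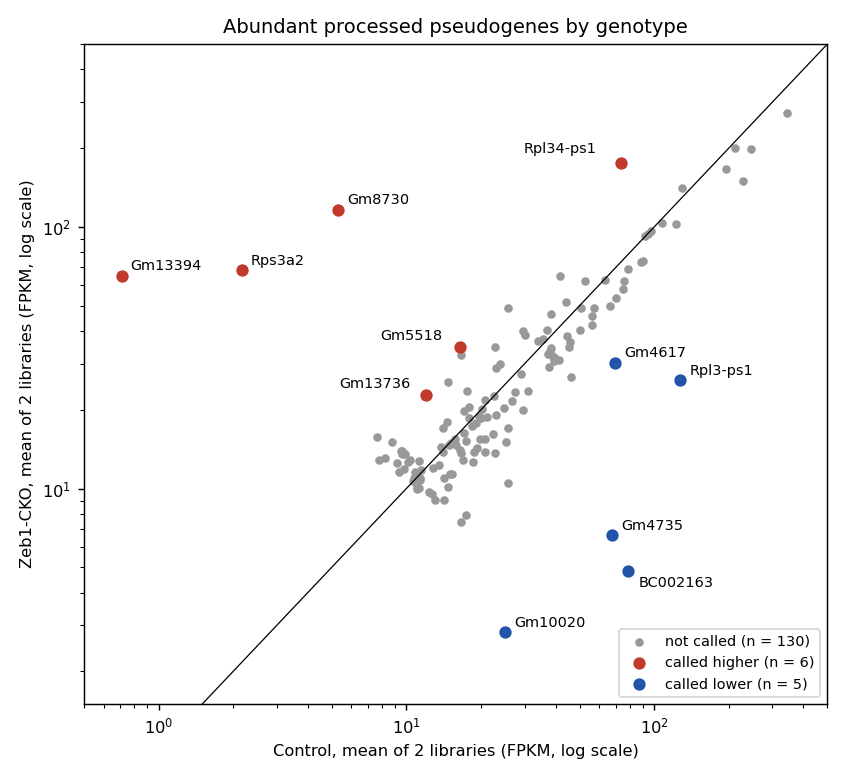
Each point is 1 of the 141 pseudogenes, with its mean over 2 control libraries on the x axis and its mean over 2 Zeb1-CKO libraries on the y axis, both in FPKM on log scales. The line marks equal levels, red points are the 6 called higher and blue points the 5 called lower; Gm13394, Rps3a2 and Gm8730 lie far above the line and BC002163, Gm4735, Gm10020 and Rpl3-ps1 far below it.

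Among the pseudogenes of ribosomal proteins, 3 of 50 were called higher and 2 lower (10%, beside 3.13% of all fitted genes). Of these, Gm8730, Rps3a2 and Gm10020 passed the threshold through 1 genotype, so nothing is read from that share. The class had a median log2 fold change of -0.21. Control and Zeb1-CKO libraries did not overlap in 21 of the 50 (42%, beside 49.4% of all fitted genes). Gm8730 (ENSMUSG00000063696.7, chr8:102864845-102865798) is a copy of the ribosomal stalk protein gene Rplp0 and lies between genes. It was at 4.60 and 5.99 FPKM in control libraries and at 132 and 101 FPKM in Zeb1-CKO libraries. The Zeb1-CKO libraries were both far above the controls, with a log2 fold change of 4.22 ± 0.19 (SE, limma adjusted p = 0.000974). Its parent Rplp0 was at 1001 and 1070 against 1026 and 821 FPKM, and these libraries overlapped. A low copy that shares exact 100-base windows with Gm8730, AC123956.1, was called higher with it, at 1.45 and 1.72 against 7.11 and 5.28 FPKM (limma adjusted p = 0.0222). Gm9625, another such low copy, was at 2.92 and 5.31 against 2.69 and 3.12 FPKM and was not called (limma adjusted p = 0.541). By the estimated depths, Gm8730 rested on about 90 and 64 fragments in control libraries and 2759 and 1608 in Zeb1-CKO libraries.

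Rps3a2 (ENSMUSG00000062611.4, chr14:88123017-88123808) is a copy of Rps3a1, which encodes a protein of the small ribosomal subunit. It was at 1.37 and 2.96 FPKM in control libraries and at 81.9 and 54.9 FPKM in Zeb1-CKO libraries. The groups were far apart, with a log2 fold change of 4.47 ± 0.30 (SE, limma adjusted p = 0.00283). Rps3a1 was at 460 and 508 against 444 and 311 FPKM, lower in both Zeb1-CKO libraries but not called (limma adjusted p = 0.401). Rps3a2 made up 0.297% and 0.579% of the summed FPKM of the pair in control libraries and 15.6% and 15.0% in Zeb1-CKO libraries.

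Rpl3-ps1 and Gm10020, copies of genes for proteins of the large ribosomal subunit, moved the other way. Rpl3-ps1 (ENSMUSG00000084349.3, chrX:13202571-13203780) was at 128 and 127 FPKM in control libraries and at 24.1 and 27.7 FPKM in Zeb1-CKO libraries, a log2 fold change of -2.26 ± 0.14 (SE, limma adjusted p = 0.00221). Rpl3 was at 107 and 113 against 178 and 160 FPKM, higher in both Zeb1-CKO libraries and not called (limma adjusted p = 0.0792). In the controls, the copy was thus at a level close to that of Rpl3 itself, at 54.5% and 53.0% of the pair, and in the Zeb1-CKO libraries at 11.9% and 14.8%.

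Gm10020 (ENSMUSG00000057262.2, chr15:52477617-52478228) was at 23.6 and 26.6 FPKM in control libraries and at 2.103 and 3.55 FPKM in Zeb1-CKO libraries, with a log2 fold change of -2.79 ± 0.22 (SE, limma adjusted p = 0.00399). Rpl15 was at 171 and 139 against 150.1 and 150.0 FPKM, so that the parent's libraries overlapped while those of the copy did not. Another processed pseudogene that shares exact stretches of 100 bases with Gm10020, Rpl15-ps2, moved with it, from 10.4 and 12.4 FPKM to 0.802 and 1.39 FPKM (limma adjusted p = 0.00407). Gm4294, a further copy of this kind, was at 12.6 and 10.5 against 10.1 and 13.3 FPKM and was not called.

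Rpl34-ps1 (ENSMUSG00000068396.9, chr6:71124610-71124963) was the most abundant called member, at 62.5 and 83.9 FPKM in control libraries and 164 and 186 FPKM in Zeb1-CKO libraries. The groups did not overlap, and the log2 fold change was 1.26 ± 0.18 (SE, limma adjusted p = 0.0293). Its parent Rpl34, for a protein of the large subunit, was at 71.9 and 97.0 against 54.3 and 54.2 FPKM. The call ended without control 1, without Zeb1-CKO 1, without Zeb1-CKO 2 or with no filter on the mean, and limma adjusted p ran from 0.0249 to 0.176 over 13 alternative settings. Rpl34-ps1 and Rpl34 differ at T132C and C318G, and 1.57% of its 100-base windows had no exact copy in other transcripts.

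The pseudogenes of glycolytic enzymes numbered 5, with 1 called in each direction (40%, beside 3.13% of all fitted genes). Both called copies passed the threshold through 1 genotype, so nothing is read from that share. Gm13394 (ENSMUSG00000083773.4, chr2:28933610-28934609) is a copy of Gapdh, the glyceraldehyde-3-phosphate dehydrogenase gene, and lies in an intron of Cfap77 on the strand of that gene. It was at 0.963 and 0.456 FPKM in control libraries and at 53.5 and 76.7 FPKM in Zeb1-CKO libraries. The control values rest on about 19.7 and 5.1 fragments by the estimated depths, and the Zeb1-CKO values lie above those of the parent. The log2 fold change was 5.27 ± 0.24 (SE, limma adjusted p = 0.000974) on the scale of log2(FPKM + 1), which understates the change of a gene so low in the controls.

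Gapdh itself was listed at 9.97 and 7.85 against 12.4 and 13.4 FPKM. The copy made up 8.81% and 5.49% of the pair in control libraries and 81.2% and 85.1% in Zeb1-CKO libraries. Gm13394 shares an exact 100-base window with 84 other genes, 11 of which were fitted. The other abundant Gapdh copies had smaller differences: Gm5559 was at 41.8 and 34.8 against 48.5 and 44.6 FPKM, Gm7336 at 34.1 and 26.2 against 43.0 and 33.9 FPKM, and Gm2606 at 7.48 and 8.06 against 13.8 and 11.9 FPKM. None of the other 3 was called. Cfap77 itself did not pass the filter, with 0.193 FPKM as its highest value.

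Gm4735 (ENSMUSG00000064193.8, chr2:80837141-80838442) is a copy of the enolase genes and lies between genes. It was at 73.3 and 61.6 FPKM in control libraries and at 5.81 and 7.44 FPKM in Zeb1-CKO libraries, a log2 fold change of -3.17 ± 0.17 (SE, limma adjusted p = 0.00171). The coding gene closest to it in sequence, at 99.8% identity, is Eno1b on chromosome 18, at 105 and 96.5 against 16.3 and 20.2 FPKM. By the sequence rule used here Eno1b counts as its parent. Whether Eno1b or Eno1 was the source of the copy was not tested. Eno1b was thus called lower as well, with a log2 fold change of -2.41 (limma adjusted p = 0.00249). Eno1, the main enolase gene of glycolysis, on chromosome 4, was at 82.8 and 77.4 against 118 and 123 FPKM, higher in both Zeb1-CKO libraries and not called (limma adjusted p = 0.0802). A smaller copy, Gm5855, was lower with Gm4735, at 3.12 and 3.34 against 0.920 and 0.884 FPKM (limma adjusted p = 0.0335).

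Of the 9 pseudogenes of mitochondrial proteins, 1 was called, as lower (11.1%). Of all fitted genes, 3.13% were called in either direction and 0.901% lower. The called copy, BC002163, passed the threshold through the controls alone, so nothing is read from that share or from the sum of the class. A negative log2 fold change was found in 8 of 9, beside 90 of all 141 members and 6443 of 13651 fitted genes. The median was -0.36. Their sum was 622 and 609 FPKM in control libraries and 353 and 438 FPKM in Zeb1-CKO libraries. Much of that difference came from BC002163 and from Gm6969. The mean of Gm6969 was 229 FPKM in control libraries and 150.3 FPKM in Zeb1-CKO libraries. BC002163 (ENSMUSG00000081824.5, chr16:42955631-42955949) is a copy of Ndufs5, which encodes a subunit of respiratory complex I. It was at 73.5 and 83.2 FPKM in control libraries and at 3.55 and 6.13 FPKM in Zeb1-CKO libraries. The log2 fold change was -3.80 ± 0.24 (SE, limma adjusted p = 0.00233), and the copy went from 71.7% and 72.2% of the pair to 7.83% and 8.60%. Ndufs5 was at 29.1 and 32.0 against 41.8 and 65.2 FPKM, higher in both Zeb1-CKO libraries and not called (limma adjusted p = 0.167).

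BC002163 lies in an intron of Zbtb20, on the same strand. Zbtb20, a zinc-finger repressor gene, was at 4.997 and 8.01 against 4.06 and 5.51 FPKM and was not called (limma adjusted p = 0.516). BC002163 in the controls was thus well above the gene that holds it. The protocol does not mark strand, so reads from either strand count together.

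**Figure D2:**
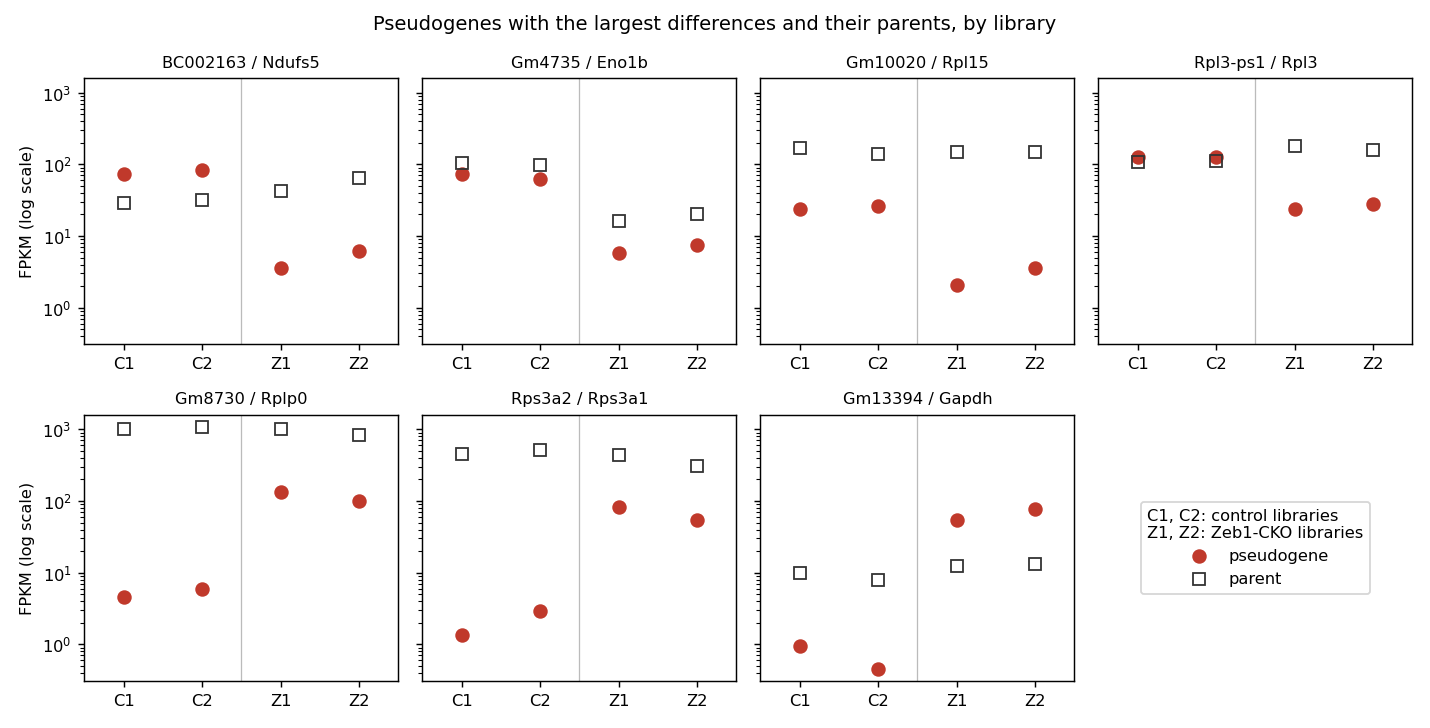
Each panel gives 1 of the 7 members with a log2 fold change over 2 in either direction (filled circles) and its closest parent (open squares) in the 4 libraries, in FPKM on a log scale. The circles step up or down between the controls (C1, C2) and the Zeb1-CKO libraries (Z1, Z2), from 4.60 and 5.99 to 132 and 101 FPKM in Gm8730, while the squares stay within a narrower band in all but the panel of Gm4735 and Eno1b.

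Of the 16 pseudogenes of chromatin and nuclear proteins, 1 was called higher and 1 lower (12.5%, beside 3.13% of all fitted genes). The median log2 fold change was 0.24. Control and Zeb1-CKO libraries did not overlap in 12 of the 16 (75%), beside 51.8% of all members and 49.4% of all fitted genes. The 16 are not separate observations, since 4 are copies of Hmgb1, 3 of Rbm3 and 2 of Ptma. Members that passed the threshold through 1 genotype are not set apart in this count, and nothing is read from it. Gm4617 (ENSMUSG00000096544.2, chr3:124385667-124385997) is a copy of Ptma, the gene of the acidic nuclear protein prothymosin alpha. It was at 70.1 and 68.9 FPKM in control libraries and at 29.4 and 31.0 FPKM in Zeb1-CKO libraries, a log2 fold change of -1.17 ± 0.12 (SE, limma adjusted p = 0.0124). The call ended without Zeb1-CKO 1, without Zeb1-CKO 2 or with no filter on the mean, and limma adjusted p ran from 0.00926 to 0.0979 over the alternatives. Ptma was at 505 and 645 against 558 and 403 FPKM, with overlap, and the other abundant Ptma copy, Gm9800, was at 209.8 and 214 against 218 and 183 FPKM.

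Gm5518 (ENSMUSG00000068466.5, chr19:29160118-29160762) is a copy of Hmgb1, which encodes a DNA-bending chromatin protein. It was at 17.9 and 14.9 FPKM in control libraries and at 35.7 and 33.6 FPKM in Zeb1-CKO libraries, a log2 fold change of 1.03 ± 0.15 (SE, limma adjusted p = 0.0280). The call ended without control 2, without Zeb1-CKO 1, without Zeb1-CKO 2 or with no filter, and limma adjusted p ran from 0.0261 to 0.156. Hmgb1 was at 50.03 and 36.6 against 41.8 and 35.2 FPKM, with overlap. Gm5518 shares exact 100-base windows with 46 genes, of which 13 were fitted. The most abundant of these copies, Gm15387, was at 31.9 and 19.5 against 49.7 and 48.4 FPKM and was not called (limma adjusted p = 0.110). A low copy, Gm10075, was called higher, at 0.464 and 0.974 against 4.10 and 4.46 FPKM (limma adjusted p = 0.0224).

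Gm13736 (ENSMUSG00000082908.4, chr2:87526145-87526397) was the only called member whose parent fell outside the named classes. The parent is Srp9, for a protein of the signal recognition particle, and over its 253 bases the copy is identical to it. Gm13736 was at 11.5 and 12.4 FPKM in control libraries and at 24.3 and 21.2 FPKM in Zeb1-CKO libraries, a log2 fold change of 0.87 ± 0.14 (SE, limma adjusted p = 0.0400). Srp9 was at 15.0 and 14.1 against 12.7 and 12.6 FPKM. None of the 100-base windows of Gm13736 was unlike every other transcript, so that no read within it can be placed against these transcripts by sequence alone. The call ended without any 1 of the 4 libraries, with no filter, under both other scalings and without an intensity trend, with limma adjusted p from 0.0360 to 0.191.

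The remaining named classes held no called member. The 6 copies of translation factor genes had log2 fold changes from -0.29 to 0.28, the 4 of cytoskeletal genes from -0.40 to 0.58, the 4 of ubiquitin and proteasome genes from -0.42 to -0.01, and the 3 of chaperones and prolyl isomerases from -0.0045 to 0.30. The 1 copy of a ferritin or thioredoxin gene was at 0.49. Among all members not called, the range was -1.30 to 1.00. The outermost of these were Gm12751 and Gm9825. Gm12751, identical over its aligned length to Polr1d, the gene of a subunit of RNA polymerases, was at 27.1 and 24.3 against 6.63 and 14.3 FPKM (limma adjusted p = 0.112). Gm9825, a copy of the splicing regulator gene Rnps1, had a log2 fold change of 1.00 (limma adjusted p = 0.130). AC109261.2 and Nudc-ps1, a copy of the gene of a nuclear migration protein, were at -1.07 and -1.05 on that scale, also not called.

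Of the 10 most abundant members, Rpl34-ps1 alone was called. Gm3788, a copy of the actin-binding Tmsb10, was at 225 and 267 FPKM in control libraries and at 129 and 270.0 FPKM in Zeb1-CKO libraries. Its Zeb1-CKO libraries differed from each other by more than the genotypes did. Gm6969, a copy of Cox7a2l, was lower in both Zeb1-CKO libraries, at 237 and 221 against 146 and 155 FPKM, but was not called (limma adjusted p = 0.0765).

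Gm10443, a copy of the small-subunit gene Rps28, had the widest control spread of these 10, at 105 and 284 FPKM against 164 and 168 FPKM. Dynlt1-ps1, a copy of the dynein light chain gene Dynlt1a, was at 142 and 102 against 82.5 and 123 FPKM. Gm10123, identical to the cyclophilin gene Ppia over its aligned length, was at 123 and 137 against 149 and 133 FPKM. Gm9794, a copy of Rpl23, was at 81.8 and 133 against 103.4 and 102.8 FPKM. Gm9843, a copy of Fau, was at 99.9 and 93.9 against 95.4 and 97.4 FPKM. The genotypes overlapped in each of these 5.

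The spread between libraries of 1 genotype was larger for the members than for coding genes of that abundance, as a description with no test. The median absolute log2 difference between replicates was 0.24 in the controls and 0.22 in the Zeb1-CKO libraries for the members, and 0.16 in both for coding genes of that level. For processed pseudogenes with a mean of 1 to 10 FPKM it was 0.36 and 0.30.

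The parents were found by sequence alone. Their median absolute log2 fold change was 0.16, beside 0.25 for the 117 members at 10 FPKM or more in both genotypes and 0.21 for all fitted genes. The difference was not tested, and the parents were also more abundant, with a median level of 67.2 FPKM beside 24.1 FPKM. Their median absolute log2 difference between replicates was 0.16 beside 0.23 in the controls, and 0.22 beside 0.21 in the Zeb1-CKO libraries. Of 116 parents, 1 was called higher and 1 lower (1.72%, beside 3.13% of all fitted genes), with a median log2 fold change of -0.01. The one called lower was Eno1b, the parent of Gm4735 by sequence, while Eno1 was not called. The one called higher was Rpl29, at 2.90 and 5.30 against 17.3 and 13.96 FPKM, a call that ended without Zeb1-CKO 1 or without Zeb1-CKO 2. Its abundant copies Gm8210 and Gm13841, named here after their values were seen, were at 47.1 and 44.5 against 39.3 and 33.4 FPKM and at 29.1 and 18.7 against 31.1 and 28.8 FPKM. Neither copy was called.

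In 7 of the 11 called members, the parent's log2 fold change had the opposite sign, and in the members that were not called this was so for 44 of 128. The member's percentage of the pair's summed FPKM differed by more than 10 points between genotype means in 10 of the 11 called members and in 21 of all 139 pairs. The median difference was 2.18 points. These shares restate the same values and add no test.

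Each parent was then summed with all of its processed pseudogenes. For the families of the called members, the log2 fold change of the sum was -0.0034 for Rplp0 (limma adjusted p = 0.994), -0.13 for Rps3a1, -0.30 for Rpl3, -0.27 for Rpl15, -0.28 for Ptma, 0.40 for Srp9, 0.49 for Rpl34 and 0.57 for Hmgb1. None of these 8 sums was called. Another sum weighted each FPKM by the length of the longest annotated transcript of its gene, relative to that of the parent. Which transcripts were present was not tested, and a parent with a long one leaves its copies a small weight. This weighting turned the sign for Srp9 (-0.11) and Rpl34 (-0.01). It brought Hmgb1 to 0.26, Rpl15 to -0.12, Rpl3 to -0.06 and Rplp0 to -0.05, with Rps3a1 at -0.17 and Ptma at -0.27. The Rplp0 family, for example, was at 1011 and 1084 FPKM in control libraries and at 1170 and 932 FPKM in Zeb1-CKO libraries, so that the rise of Gm8730 was small beside the whole. A large parent can hide a change of a small copy in this way, and for such families the sum says little about the copy.

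The sums with the largest differences among these families were those of Ndufs5, Eno1b and Gapdh. The Ndufs5 family, which is Ndufs5 and BC002163, was at 103 and 115 against 45.3 and 71.3 FPKM, a log2 fold change of -0.92 that was not called (limma adjusted p = 0.111). Weighted by length it was at 63.6 and 71.1 against 43.4 and 68.1, with overlap, and the log2 fold change was -0.30 (limma adjusted p = 0.557). The family of Eno1b was at 182 and 162 against 23.1 and 28.5 FPKM and was called lower, at -2.69 (limma adjusted p = 0.00226). When Eno1 was added, as a gene that shares exact 100-base windows with Gm4735, the sum was 264 and 239 against 141 and 152 FPKM, at -0.78 (limma adjusted p = 0.0467). The family of Gapdh was at 131 and 117 against 205 and 220.3 FPKM and was called higher, at 0.77 (limma adjusted p = 0.0490). This last call ended with sums weighted by length (0.71, limma adjusted p = 0.0622) and with any 1 library left out, while the sum of Eno1b was still called when weighted (-2.64, limma adjusted p = 0.00226). Over the table with family sums, 3.03% of 13354 rows were called.

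**Figure D3:**
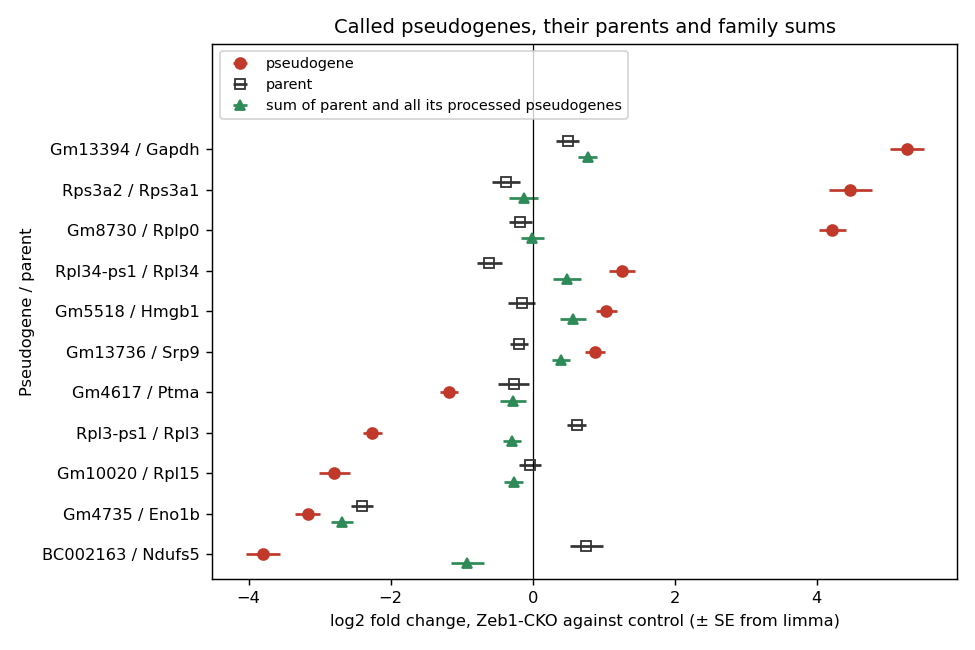
The log2 fold change of Zeb1-CKO against control, with its standard error from limma, is given for the 11 called pseudogenes (circles), their parents (squares) and the sum of each parent with all of its processed pseudogenes (triangles). Parents and sums lie nearer to 0 than the pseudogenes in each row; the sums of Eno1b and Gapdh, at -2.69 and 0.77, are the called ones.

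The sequence that sets a member apart from other transcripts was short in most. Across all members, a median of 26.2% of 100-base windows had no exact copy in a transcript of any other gene, 36 members had no such window and 6 consisted of such windows only. The 6 were Gm16418, Gm16016, AC109261.2, Gm15530, Gm47830 and Gm17971, named here after their values were seen, and none of them was called. The called members had a median of 21.4% and the others 26.9%. For windows of 150 bases the median over all members was 36.5%. By share of 100-base windows without a copy, 1 of the 36 members with none was called (2.78%) and 6 of 33 with up to 25% (18.2%). With above 25% to 50% it was 3 of 38 (7.89%), and with more 1 of 34 (2.94%), beside 3.13% of all fitted genes. Several called members passed the threshold through 1 genotype, so nothing is read from these shares. Gm8730, at 63.9%, and BC002163, at 47.7%, had the highest shares among the called members.

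**Figure D4:**
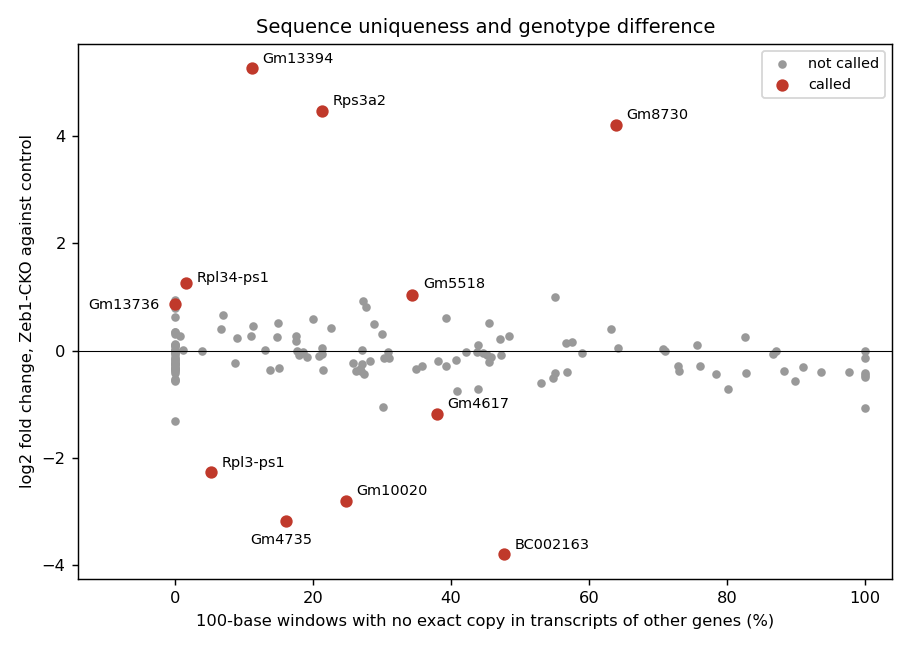
The x axis gives the percentage of 100-base windows of each pseudogene without an exact copy in transcripts of other genes, and the y axis its log2 fold change between genotypes. Red points are the 11 called members, which lie from 0% (Gm13736) to 63.9% (Gm8730), and the grey points of the 130 others stay between -1.30 and 1.00 over the whole width.

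By position, 87 members lay between annotated genes, 48 in an intron of another gene and 6 over an exon of another gene. Of the 48, 20 were on the strand of that gene. Called members numbered 9 of the 87 (10.3%), 2 of the 48 (4.17%) and none of the 6, beside 3.13% of all fitted genes. Several called members passed the threshold through 1 genotype, so nothing is read from these shares. The 11 called members were spread over 9 chromosomes, with 3 of the 17 members on chromosome 2. None was on chromosome 18, which carries Zeb1 at positions 5591860 to 5775467 and Eno1b at 48045335 to 48048412. The only member there, Gm7665, had a log2 fold change of 0.03.

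Genes around the called members were mostly not called. Within 500 kb of the 11 lay 48 fitted genes, of which 1 was called (2.08%), beside 24 of 927 (2.59%) around the other members, counting a gene once for each member it lies near. The called neighbour was Gm10136, a processed pseudogene 156276 bases from Gm5518. It was lower in the Zeb1-CKO libraries, at 8.07 and 9.20 against 3.42 and 4.33 FPKM (limma adjusted p = 0.0441), opposite to Gm5518.

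Among the called members, 7 kept their call in each of the 13 alternative settings tried, including the loss of any 1 library: Gm13394, Gm8730, Rps3a2, BC002163, Gm4735, Gm10020 and Rpl3-ps1. These are the 7 with a log2 fold change over 2 in either direction and the ones whose sequences are printed above. Of these, Rpl3-ps1 alone was at 10 FPKM or more in both genotypes. The others passed the threshold through the genotype in which they are high, and nothing is read from their stability. Over those settings the limma adjusted p of each stayed at or under 0.0436. Whether reads of the parent, another genomic copy or transcription at the copy itself gave the reads in each genotype was not tested, since the reads were not used here.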

How the data were processed

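RNA was measured in 4 libraries of 100 sorted endothelial cells by RNA sequencing with SMART-Seq v4 cDNA, per the labels' protocols, in read pairs of 150 bases. Trimmomatic 0.36, HISAT2 2.1.0 and StringTie 1.3.3 were used on mm10, per the submitters' processing notes. How reads with several matches were handled, and on which annotation, is not given in the sources used here. Deposited by the authors were FPKM per gene; this unit was inferred from the values and the tools, since the header states none. How fragments were divided among near-identical transcripts affects each value.

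The members and lists were chosen with earlier results of these data known. The test, run in limma 3.58.1 under R 4.3.3, used log2(FPKM + 1) and an intensity trend over 13651 genes averaging 1 FPKM or more, with genotype as the only term and Benjamini-Hochberg adjusted p under 0.05 over all of them. The same script was tested on simulated data. Depth was estimated from the ladder of low values, and estimated fragments are FPKM times length times that depth; amplified reads without molecular identifiers overstate independent molecules.

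Members were matched to GENCODE M21 by stable identifier (141 of 141, 139 with the same version, all with the same start). Parents came from BLAST 2.17.0 against coding transcripts. Windows were compared with annotated M21 transcripts only, since no genome was used here, and the base composition after each copy was not analysed. Family sums add the FPKM of a parent and every processed pseudogene matched to it; window-sharing sums were added after seeing the data.

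The genes named are every called member, the 10 most abundant, the 3 on each side of the threshold, the 3 with the largest log2 fold change in each direction, their parents and called neighbours; other copies of the same family, and genes that hold a member, were named after their values were seen. Of the genes this rule takes, 1 member and its parent are not reported here. Alternatives changed the block, the pseudocount, the filter, the scaling, the threshold or the parent rule, or left out 1 library. Tables were handled with Python 3.11.15 and drawn with matplotlib 3.10.9.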

Additional observations from a re-analysis of the deposited data

How the results depend on the processing

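The 7 members with a log2 fold change over 2 in either direction were called with the same sign in each of the 13 alternatives tried. The count of members called higher, 6, was 3 with a replicate block, 3 with no filter on the mean, 10 at an adjusted p under 0.10, and 3 to 8 with 1 library left out (3 without Zeb1-CKO 1 and 3 without Zeb1-CKO 2). The count called lower, 5, was 11 at an adjusted p under 0.10, 10 for processed pseudogenes with a mean of at least 5 FPKM, and 4 to 5 with 1 library left out. Parents called higher, 1, were 0 with a replicate block, 0 with no filter, 2 with quantile normalization, 2 with a crossed block, and 0 to 1 with 1 library left out; parents called lower, 1, were 2 with a crossed block. Family sums called higher, 1, were 0 with length-weighted sums, 0 with a replicate block and 0 with any 1 library left out. The cause of these moves was not tested. Of the 7 members named first, all but Rpl3-ps1 passed the threshold through 1 genotype, and nothing is read from the stability of their calls.

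The deviations of same-numbered libraries had a correlation of -0.12 over 13651 genes. With 2 libraries a genotype, this value cannot tell whether the libraries were handled in pairs. The replicate block is given as an alternative only, and with it the calls of Rpl34-ps1, Gm4617, Gm5518 and Gm13736 ended. Pairing control 1 with Zeb1-CKO 2, chosen after seeing the data, called 6 members higher and 6 lower. Of the members named but not called, 7 changed sign when 1 library was left out. Their log2 fold changes then ran from -0.93 to 0.14 for Gm3788, -0.21 to 0.041 for Gm9800, -0.77 to 0.65 for Gm10443, -0.54 to 0.033 for Dynlt1-ps1, -0.37 to 0.33 for Gm9794, -0.051 to 0.037 for Gm9843 and -0.29 to 0.0053 for Gm10093. Quantile normalization gave 0.0019 for Gm9794 and 0.00039 for Gm9843. Depth limits the lowest values, such as Gm13394 in control 2 with about 5.1 fragments.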
